A study of Mus musculus with 4 samples.

Results

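The genes described here are those of mouse nuclear DNA that encode subunits of oxidative phosphorylation, measured by RNA sequencing in lymphatic endothelial cells. They were chosen by symbol alone (Nduf, Uqcr, Cox4 to Cox8, Atp5 and Sdha to Sdhd). In all, 85 of 23337 counted gene symbols matched, and the 81 that reached 20 counts in any library were kept, against 18949 symbols that passed the same filter among all genes. They fall into 36 genes of complex I, 4 of complex II, 8 of complex III, 14 of complex IV and 15 of complex V. Ndufa4 and Ndufa4l2 were placed in complex I by their symbols. Another 4 match by symbol but encode no subunit: Cox7a2l, which helps to join complexes into supercomplexes, Atp5s and Atp5sl, which are accessory or assembly proteins, and Cox4nb, now called Emc8, which belongs to a complex of the endoplasmic reticulum. The filter left out Cox6b2, Cox7a1 and Cox8c, with at most 13, 6 and 8 counts in any library, and Ndufs5, which had 0 counts in all 4. Just inside the filter lay Cox6a2 and Cox8b, with at most 22 counts each, Ndufa4l2 with 37 and Cox7b2 with 41. The 13 subunits that mitochondrial DNA encodes were not analysed here.

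Oxidative phosphorylation takes place in the inner mitochondrial membrane. Complex I (NADH dehydrogenase) and complex II (succinate dehydrogenase) pass electrons to ubiquinone, complex III (cytochrome bc1) hands them to cytochrome c, and complex IV (cytochrome c oxidase) hands them to oxygen. Complexes I, III and IV pump protons, and complex V (ATP synthase) uses the proton gradient to make ATP. Most subunits are encoded in the nucleus, made in the cytosol and imported, and must be matched with the few that mitochondrial DNA encodes. Endothelial cells are known for drawing much of their ATP from glycolysis, while respiration, at complex III in particular, has been linked to the upkeep of Prox1 and Flt4 expression in lymphatic endothelium.

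All 4 libraries come from mouse embryos at day 14.5. Cells that lacked the leukocyte marker CD45 and bore LYVE1, a hyaluronan receptor of lymphatic endothelium, and VECAD (CD144), the cadherin of endothelial junctions, were sorted from the dorsal anterior region. An entire litter was pooled per genotype, which was either wild type or homozygous mutant for a deletion. The series title names a GATA2-bound enhancer; the labels do not name its gene, which in the published study is Prox1. One portion of each sort was lysed directly (before culture). The other was grown over 7 days with OP9 feeder cells, stromal cells of the mouse that support blood cell formation, with FLT3L, IL3 and SCF at 100 ng/ml each, and was sorted again for LYVE1 and VECAD (after culture), with no exclusion of CD45 stated. Each group is 1 library, so there is no replicate and no p-value, and each comparison is between libraries.

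Where values are given in a series, the order is wild type then mutant before culture, followed by wild type then mutant after culture. Gene counts totalled 3987150, 7943587, 1694669 and 3931557. Levels are counts scaled to a common library size by the trimmed mean of M values (CPM below), with exact Poisson 95% intervals, and folds are ratios of 2 such levels with 95% Clopper-Pearson intervals; both cover counting error only. A gene was called where its whole interval lay beyond 2-fold. Olfactory and vomeronasal receptor genes, which should be silent here, held 6.62, 8.32, 0.536 and 1.61 counts per kb, so low counts before culture were read against that rate. With the principal transcript as length, 77 of the 81 members had at least 3 times their share of it in every library, and Cox4i2, Cox6a2, Cox8b and Ndufa4l2 did not. With all exons as length 72 had, and Atp5e, Atp5g1, Atp5s, Ndufb2 and Ndufb4 also fell short. The summed level of 6 lymphatic markers was 5879, 5442, 6614 and 5413 CPM, but in both genotypes 4 of the 6 were called lower after culture. Their folds in wild type and mutant cells were 0.408 and 0.282 for Prox1, 0.158 and 0.134 for Mmrn1 and 0.0187 and 0.0213 for Reln, and Pdpn, which encodes podoplanin, had 0 and 8 counts after culture. The sum after culture was carried by Lyve1, which was used in the sort, and Flt4. Prox1, the homeobox factor of lymphatic identity, stood at 507, 487, 207 and 137 CPM; the labels do not place the deletion, so these values do not check the genotypes. Because these are bulk samples, fewer cells of a type and less RNA per cell cannot be told apart.

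The upstream sequences of 4 members are shown as examples from those called higher in the culture of wild type cells, described below. These are not the 4 highest folds, since Cox8a and Cox5b stood above Ndufa8, Ndufb11 and Atp5h. The 4 were also picked because the short words long known from promoters of respiratory genes sit differently in each, so that variety is no finding. The sequences are from RefSeq (GRCm38.p6), hold the 250 bases before the annotated start, and are printed 5′ to 3′ on the gene's strand. Capitals mark the words GCGCATGC (the core of the NRF1 element) and CCGGAAG (bound by GABP and other ETS factors), on either strand. Cox6a1 lies on the minus strand with its window at chr5:115348959-115349208, Ndufa8 on the minus strand at chr2:36049339-36049588, Atp5h on the minus strand at chr11:115419920-115420169 and Ndufb11 on the minus strand at chrX:20617620-20617869.
Cox6a1: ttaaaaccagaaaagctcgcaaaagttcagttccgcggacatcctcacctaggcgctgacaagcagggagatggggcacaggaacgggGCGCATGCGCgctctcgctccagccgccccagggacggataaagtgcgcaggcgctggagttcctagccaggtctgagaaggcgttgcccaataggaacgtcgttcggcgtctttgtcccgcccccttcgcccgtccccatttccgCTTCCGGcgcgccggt
Ndufa8: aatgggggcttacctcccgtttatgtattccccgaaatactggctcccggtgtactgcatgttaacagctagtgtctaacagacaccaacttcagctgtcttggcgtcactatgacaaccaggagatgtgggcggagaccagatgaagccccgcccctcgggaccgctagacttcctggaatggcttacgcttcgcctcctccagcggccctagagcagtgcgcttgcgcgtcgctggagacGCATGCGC
Atp5h: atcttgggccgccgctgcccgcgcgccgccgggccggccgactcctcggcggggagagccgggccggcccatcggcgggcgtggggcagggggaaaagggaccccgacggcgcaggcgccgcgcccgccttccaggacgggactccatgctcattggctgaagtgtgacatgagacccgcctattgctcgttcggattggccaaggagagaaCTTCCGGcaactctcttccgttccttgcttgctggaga
Ndufb11: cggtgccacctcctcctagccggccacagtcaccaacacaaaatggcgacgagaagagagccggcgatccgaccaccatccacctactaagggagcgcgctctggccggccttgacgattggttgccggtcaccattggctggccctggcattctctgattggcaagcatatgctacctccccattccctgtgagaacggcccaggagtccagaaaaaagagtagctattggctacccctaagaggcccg
In Cox6a1 the first capital run starts 162 bases before the start and holds GCGCATGC in both orientations, which overlap, and CCGGAAG in reverse starts 16 bases before it. In Ndufa8 the NRF1 core begins 8 bases before the start, in Atp5h the ETS word begins 38 bases before it, and the Ndufb11 window holds neither. A RefSeq window of 300 bases, with 50 bases past the start, was found for 66 of the 81 members, with 72 windows in all. GCGCATGC was in 13.9% of these windows and 2.71% of all 32851 windows of the table, CCGGAAG in 22.2% and 8.86%, and AAGATGGCG, a word of the factor YY1, in 12.5% and 1.40%. At least 1 of the 3 words was present for 28 of the 66 members (42.4%) and for 13.6% of all 27025 genes. The genes and windows compared were not filtered for expression, whereas all members had passed the filter on counts. How far the higher shares are particular to respiratory genes was not tested. The words were found in 12 of 31 matched genes of complex I, 2 of 3 of complex II, 3 of 5 of complex III, 3 of 10 of complex IV and 7 of 14 of complex V. A match of letters is a description of the window and not of binding.

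The 77 subunit genes together held 3429 CPM (3377 to 3480) and 3930 CPM (3889 to 3971) before culture, and 5930 CPM (5802 to 6060) and 5458 CPM (5379 to 5538) after it. Both cultured libraries were thus above both uncultured ones on this scale, and the genotype with the higher sum was the mutant before culture and the wild type after it. As a plain share of gene counts, without scaling, the sums were 0.428%, 0.456%, 0.481% and 0.464%, which lie much closer together. Complex V held the most in every library, with 1458, 1662, 2393 and 2165 CPM, followed by complex I with 971, 1119, 1702 and 1632 CPM. These sums are of counts and are not corrected for transcript length or for the number of genes. Complex III, complex IV and complex II, the smallest in its number of genes, followed. Complex IV stood just below complex III in the wild type library before culture, at 360 CPM (343 to 377) against 367 CPM (350 to 384), with overlapping intervals. With Ndufa4 and Ndufa4l2 placed under complex IV, that complex held 375 CPM (359 to 393) in the same library. The order there thus depends on where these genes are placed. In the other libraries complex IV was above complex III, at 443 against 394, 749 against 625 and 673 against 562 CPM.

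**Figure D1:**
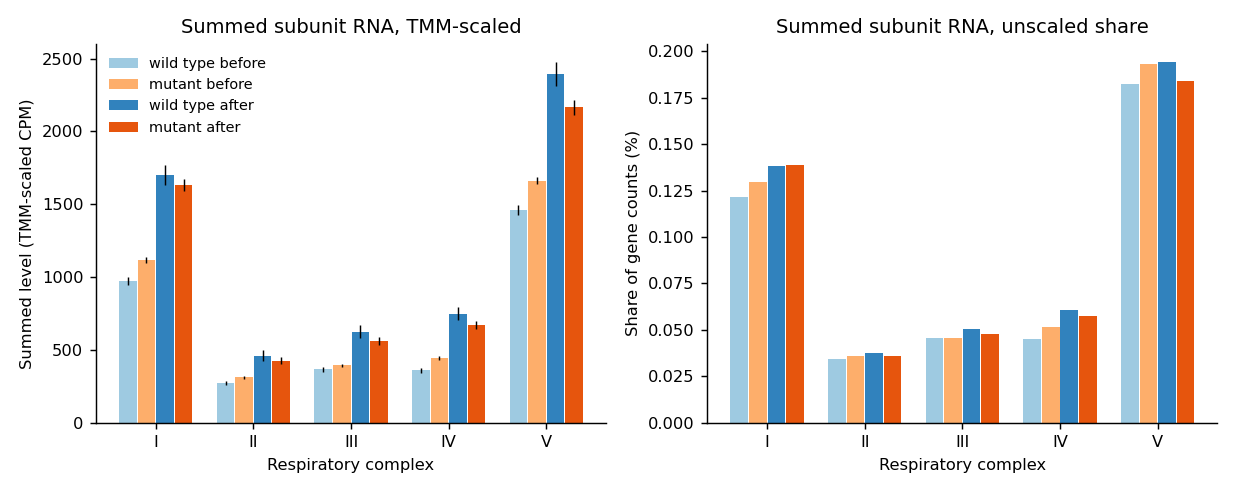
Summed counts of the subunit genes of complexes I to V in the 4 libraries, as TMM-scaled CPM (left) and as a percentage of gene counts with no scaling (right); bars are single libraries and error bars are 95% counting intervals. On the left the cultured libraries stand above the uncultured ones in each complex, with complex V at 1458 CPM in the wild type library before culture and 2393 CPM after it. On the right the same libraries lie much closer.

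Levels of different genes were compared per kb of the principal transcript. Subunits of ATP synthase led on this scale. Atp5b, the catalytic beta subunit, stood at 212, 236, 354 and 302 CPM per kb, and Atp5h, the d subunit of the peripheral stalk, at 177, 205, 455 and 424 CPM per kb. Atp5b was thus the highest member before culture and Atp5h the highest after it, in both genotypes. Atp5a1, the alpha subunit, had 164, 189, 226 and 196 CPM per kb, and Atp5j, another stalk subunit, had 136, 165, 333 and 302 CPM per kb. Atp5a1 ranked behind Atp5b and Atp5h before culture and also behind Atp5j, Cox6c and Uqcrq after it, in both genotypes. Outside complex V the highest member after culture was Cox6c of complex IV, with 112, 129, 263 and 260 CPM per kb. With exons of all transcripts as the length, Atp5a1 led before culture in place of Atp5b, and Cox8a (wild type) and Atp5a1 (mutant) led after it, so the order among the top members depends on the gene model.

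Culture of wild type cells was compared with the same sort before culture. On the scaled levels 8 members were called higher and none lower. They are spread over complexes I, III, IV and V, and none is a catalytic subunit or an electron carrier of its complex. The 8 are 10.5% of the 76 members tested, against 8.17% called higher and 5.77% called lower among 17154 genes, so their share is near the background. Most members had smaller differences of one direction: 55 of 76 (72.4%) had an interval above 1, against 33.9% of all genes. An interval below 1 was found for Ndufs8 and for Cox4i2, which passed the filter only before culture (2 members, against 27.3% of all genes). The median log2 fold was 0.86 over the members and 0.05 over all genes, and 69 of the 76 lay above the median of all genes. The summed fold over the 77 subunits was 1.73 (1.68 to 1.78).

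Other lists and the share of unaligned reads moved over the same comparison. In the wild type libraries before and after culture, 7 pan-endothelial markers summed to 3561 and 8382 CPM, 9 stromal markers to 3284 and 1178 CPM, and 8 fat markers to 78.1 and 541 CPM, of which Fabp4, also expressed by endothelium, held 394 CPM. Of these fat markers Adipoq, Car3, Fabp4 and Plin1 were called higher in wild type cells, with folds of 10.1, 5.88, 10.5 and 10.3. Cidea, Cidec, Lep and Ucp1 had at most 6 counts each in the wild type library after culture. In the mutant libraries only Fabp4 and Plin1 of the 8 were called higher. Cytosolic ribosomal protein genes, the list added after the data were seen, summed to 11410 and 20388 CPM, a fold of 1.79 (1.76 to 1.81), and their fold in mutant cells was 1.27 (1.25 to 1.28). Read pairs that did not align were 21.4%, 34.1%, 67.6% and 56.2% of all pairs in the wild type and mutant libraries uncultured and then cultured, in that order. The part of these in the folds of the members was not tested.

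In complex IV, Cox6a1, a subunit of the dimer interface in its widely expressed form, had 23.9 CPM (19.8 to 28.6), 39.1 CPM (35.1 to 43.3), 96.8 CPM (81.0 to 115) and 64.9 CPM (56.5 to 74.1). The 4 intervals do not overlap, and the wild type library was lowest before culture and highest after it. Its culture fold was 4.05 (3.14 to 5.23) in wild type cells, the highest of any member with at least 100 counts, and 1.66 (1.40 to 1.97) in mutant cells. Cox8a, a small membrane-spanning subunit in its widely expressed form, had 33.5, 42.0, 120 and 86.1 CPM, with a wild type culture fold of 3.58 (2.87 to 4.47). Cox5b, a zinc-binding subunit on the matrix side, had 12.2, 22.6, 42.9 and 40.4 CPM, with a fold of 3.51 (2.41 to 5.10). For both genes the cultured libraries lay above the uncultured ones, without overlap of intervals. Cox5b has a near-identical annotated copy, so some of its read pairs may not have been counted. Cox4i1, by contrast, the regulatory subunit that binds ATP, had 82.9, 96.2, 140 and 112 CPM and a fold of 1.69 (1.41 to 2.0), which was not called.

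In complex I, Ndufa8, an accessory subunit of the intermembrane space side, had 23.3 CPM (19.2 to 27.9), 27.6 CPM (24.3 to 31.2), 75.7 CPM (61.8 to 91.7) and 67.0 CPM (58.5 to 76.4). Both cultured libraries lay above both uncultured ones, and within each pair the genotype intervals overlap. Its culture fold was 3.25 (2.47 to 4.27) in wild type cells and 2.43 (2.02 to 2.92) in mutant cells, the only member called in both. Ndufb11, an X-linked accessory subunit of the membrane arm, had 18.1, 26.8, 56.0 and 33.8 CPM, with a wild type fold of 3.10 (2.26 to 4.25). The wild type library after culture was above the other 3, with no overlap of intervals. The 7 nuclear core subunits, which form the path of electrons from NADH to ubiquinone, had lower folds, and none was called. Of these, Ndufs1, the largest subunit, had 87.5, 91.6, 140 and 126 CPM with a fold of 1.60 (1.35 to 1.91). Ndufv1, which binds NADH, had a fold of 1.43 (1.13 to 1.80). Ndufs8 ran the other way, with 35.7, 35.3, 23.3 and 36.2 CPM and a wild type fold of 0.652 (0.433 to 0.954), so that the wild type library after culture was the low one. Among the 7 core subunits 6 had an interval above 1 and 1 below it.

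In complex III, Uqcrq, a small subunit once named for ubiquinone binding, had 34.5, 50.3, 93.8 and 82.5 CPM and a wild type culture fold of 2.72 (2.15 to 3.44). Uqcrc1, a large core protein of the matrix side, had 110, 111, 186 and 151 CPM and a fold of 1.69 (1.45 to 1.97), while its partner Uqcrc2 had 70.0, 63.0, 80.8 and 84.9 CPM and a fold of 1.15 (0.923 to 1.43). The pair of core proteins therefore differed, with an interval that includes 1 for Uqcrc2 only. Uqcrfs1, the Rieske iron-sulfur protein, had a fold of 1.26 (0.997 to 1.57). In complex V, Atp5h had 86.1, 99.5, 221 and 206 CPM and a fold of 2.57 (2.21 to 2.98), and Atp5j had 92.5, 112, 226 and 205 CPM and a fold of 2.45 (2.11 to 2.83). Both are subunits of the peripheral stalk. The beta and alpha subunits, which are the most counted members, stood at 406, 452, 679 and 580 CPM for Atp5b and 406, 467, 559 and 483 CPM for Atp5a1, with folds of 1.67 (1.55 to 1.81) and 1.38 (1.27 to 1.5). Atp5f1, the b subunit of the same stalk as Atp5h and Atp5j, had 117, 85.7, 107 and 119 CPM and a fold of 0.912 (0.756 to 1.10). In complex II, none of the 4 genes was called, and folds ran from 1.15 (0.857 to 1.51) for Sdhd, a membrane anchor, to 1.90 (1.48 to 2.43) for Sdhc, the other anchor. Sdha, the flavoprotein, had 152, 164, 278 and 251 CPM and a wild type fold of 1.83 (1.61 to 2.07).

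**Figure D2:**
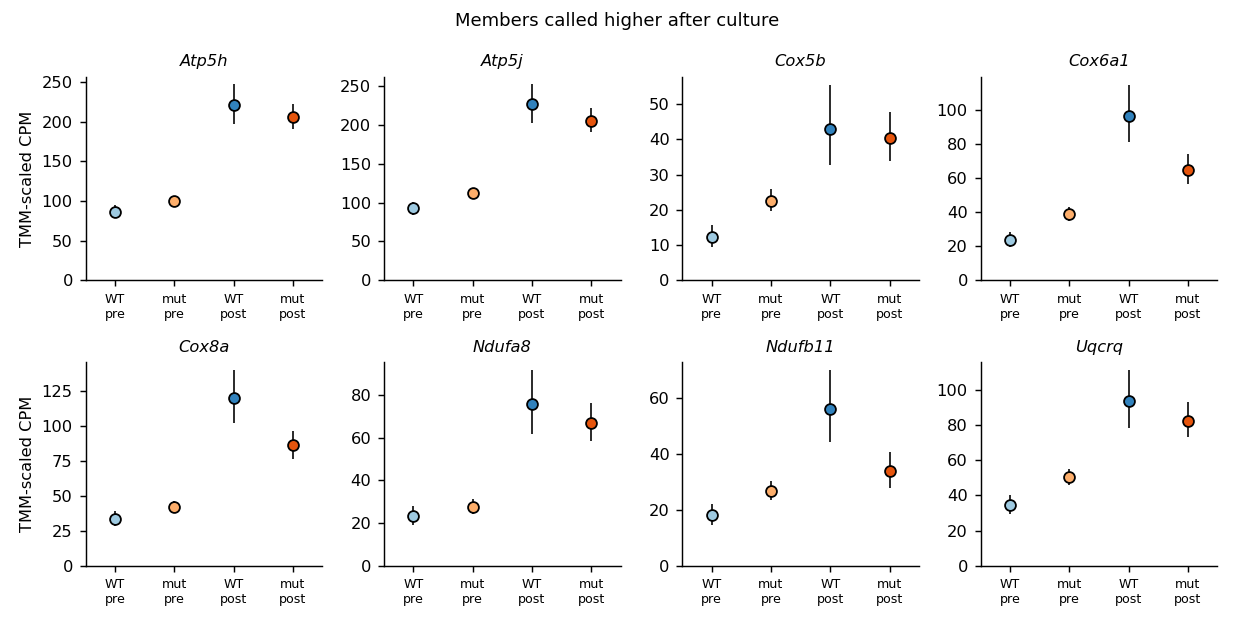
Levels of the 8 members called higher after culture of wild type cells, in TMM-scaled CPM on linear axes from 0; each point is 1 library (WT, wild type; mut, mutant; pre, before culture; post, after culture) with its exact Poisson 95% interval. All 8 were highest in the wild type library after culture, for example Cox6a1 at 96.8 CPM against 23.9 CPM before it, and lowest in uncultured wild type cells.

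In mutant cells the same comparison gave smaller folds. Ndufa8 alone was called higher and no member was called lower, so that 1.23% of the 81 members tested were called, against 5.19% called higher and 3.62% called lower among 18807 genes. An interval above 1 was found for 52 members (64.2%), against 32.4% of all genes, and one below 1 for 2, against 27.0%. The median log2 fold was 0.45 over the members and -0.04 over all genes, and 72 of the 81 lay above the latter. After Ndufa8, the highest folds among members with at least 100 counts were those of Ndufs3, a core subunit, at 2.12 (1.60 to 2.80), and Atp5h at 2.07 (1.87 to 2.29). Cox8a had 2.05 (1.75 to 2.39), Cox6c 2.02 (1.78 to 2.29) and Uqcrb 1.89 (1.65 to 2.16). The lowest folds in the same group were those of Ndufb6, at 0.907 (0.647 to 1.25), Uqcrfs1, at 0.963 (0.814 to 1.14), and Atp5e, the epsilon subunit, at 0.964 (0.662 to 1.38). The members with an interval below 1 were Ndufa4l2, at 0.223 (0.0441 to 0.705), and Ndufb4, an accessory subunit with a near-identical copy, at 0.517 (0.254 to 0.966). Both had few counts and passed the filter on counts only before culture, which favours a fold below 1. By complex, the summed culture folds of the mutant were 1.46 (I), 1.36 (II), 1.43 (III), 1.52 (IV) and 1.30 (V), against 1.75, 1.69, 1.70, 2.08 and 1.64 in wild type cells. Complex IV had the highest fold and complex V the lowest in both genotypes.

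**Figure D3:**
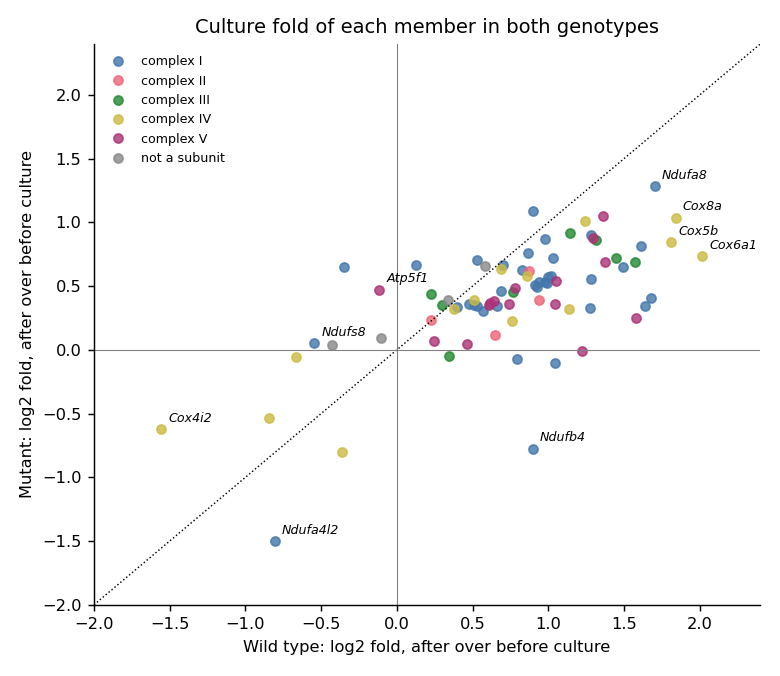
Log2 culture fold (prior count of 2) of each of the 81 members in wild type cells (x axis) and mutant cells (y axis), coloured by complex; each point is 1 gene, and the diagonal marks equal folds. Most points lie to the right of 0 and above it, and the median is 0.86 on the x axis over 76 tested members and 0.45 on the y axis over 81.

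The culture folds of the 2 genotypes share no library. Across the 81 members their log2 folds had a Pearson r of 0.65 and a Spearman rho of 0.58, and r was 0.51 over the 70 members that reached 100 counts in any library. This is a description across genes, which are not replicates, and the points share the depth of their libraries and the scaling.

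How far the cultured libraries stand above the uncultured ones depends on the scaling, since TMM factors were 1.25 and 1.16 before culture and 0.811 and 0.851 after it. With total gene counts in place of TMM, the median log2 culture fold was 0.24 over the members and -0.57 over all genes in wild type cells, and 0.00 and -0.48 in mutant cells. A change of scaling moves all genes of a library alike. It therefore cannot change the distance between members and all genes, which is 0.81 in wild type and 0.49 in mutant cells. Nor can it change the 69 of 76 and 72 of 81 members above the median of all genes. With background subtracted over all exons these became 58 of 73 and 66 of 79. On total counts only Cox6a1 was called higher in wild type cells, and no member was called in mutant cells. Cox4i2, which passed the filter on counts only before culture, was called lower in wild type cells. Atp5a1 then had culture folds of 0.895 and 0.758, so its direction after culture depends on the scaling. Background counts also matter here, since they were more frequent before culture. With the receptor rate subtracted per kb of all exons, 3 members were called higher in wild type cells (Atp5g1 at 7.63, up from 2.97, Cox6a1 and Cox8a) and the median was 0.50. The value of Atp5g1 rests on 44 counts before culture, against 32.5 expected from background. With subtraction over principal transcripts only Cox6a1 and Cox8a were called. In mutant cells the median was 0.27, with no member called higher. Ndufa4l2, which passed the filter on counts only before culture, was called lower at 0.0820. The distance from all genes also narrowed when genes had to reach 100 counts in either library, to medians of 0.75 against 0.52 in wild type and 0.50 against 0.29 in mutant cells.

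Mutant and wild type cells before culture were compared to ask what the deletion changes in cells of the embryo. No member was called in either direction, at a background of 0.0158% called higher and 0.0475% called lower among 18934 genes. The folds were small and mostly above 1. An interval above 1 was found for 34 of 81 members (42.0%), against 17.6% of all genes, and an interval below 1 for 2 members, against 8.54% of all genes. The median log2 fold was 0.21 over the members and 0.02 over all genes, 66 members were above 0, and the summed fold of the subunits was 1.15 (1.13 to 1.17). By complex, 10 of 36 members of complex I, 2 of 4 of complex II, 2 of 8 of complex III, 7 of 14 of complex IV and 12 of 15 of complex V had an interval above 1.

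In complex V the folds reached 2.24 (1.48 to 3.48) for Atp5e, which had 5.82 CPM (3.90 to 8.36) in the wild type and 13.0 CPM (10.8 to 15.6) in the mutant library. The gene for the c subunit of the proton-driven ring exists in 3 copies with the same mature protein, and all 3 were higher in the mutant library. Atp5g1 had a fold of 1.75 (1.24 to 2.51), Atp5g2 1.42 (1.02 to 2.02) and Atp5g3 1.61 (1.32 to 1.97). With background subtracted per kb of all exons Atp5g1 became 4.31 and was called. That value rests on 44 counts in the wild type library, against 32.5 expected from background, and the error of the subtraction is not covered. Over the principal transcript 3.95 counts were expected, and Atp5g1 was not called. The alpha and beta subunits differed less, with 1.15 (1.09 to 1.21) for Atp5a1 and 1.11 (1.06 to 1.18) for Atp5b. Atp5f1 ran the other way at 0.732 (0.657 to 0.816), the only member of complex V with an interval below 1. In complex I, Ndufb6, an accessory subunit of the membrane arm, had 8.43 CPM (6.07 to 11.4) against 16.8 CPM (14.3 to 19.7), a fold of 2.0 (1.41 to 2.88), and Ndufa5, of the matrix arm, had 21.9 CPM (18 to 26.4) against 15.2 CPM (12.8 to 17.9), a fold of 0.695 (0.537 to 0.901). The 7 core subunits of complex I stood near 1, with a median log2 fold of 0.06, and Ndufs7, which carries an iron-sulfur cluster, had a fold of 1.21 (1.01 to 1.45). In complex IV, Cox5b had a fold of 1.84 (1.38 to 2.50) and Cox6a1 1.64 (1.33 to 2.03), and in complex III, Uqcrq had 1.46 (1.22 to 1.74), while Uqcrc1 had 1.01 (0.909 to 1.12) and Uqcrc2 0.899 (0.786 to 1.03). In complex II, Sdhb, the iron-sulfur subunit, had 1.42 (1.20 to 1.68), Sdhc 1.22 (1.03 to 1.45), and Sdha and Sdhd had intervals that include 1.

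Folds before culture were higher for members with shorter transcripts. Members have a median principal transcript of 745 bases, against 2557 for all genes with at least 20 counts. Across the 81 members the log2 fold and the log2 length had a Pearson r of -0.37 and a Spearman rho of -0.39, while across 18669 genes r was 0.05. The culture folds of wild type cells have the same denominator, the wild type library before culture. There r was -0.29 and rho -0.41 over 76 members. In the culture of mutant cells r was -0.03 and rho -0.07, and for genotype after culture they were 0.11 and 0.14. As descriptions across genes of single libraries, these values carry no p. Other short and strongly expressed transcripts also differed between the genotypes before culture. Of 80 genes for cytosolic ribosomal proteins, a list added after the data were seen, 69 had an interval above 1, with a median log2 fold of 0.38. All 9 markers of connective tissue stroma also had an interval above 1 (Col3a1, the collagen with the most counts, had a fold of 1.51), with a summed level of 3284 CPM in the wild type and 5264 CPM in the mutant library. The part of stromal RNA and of transcript length in the folds of the members was not tested. With total gene counts 23 of 81 members (28.4%) had an interval above 1, against 9.45% of all genes. The 63 of 81 members above the median of all genes cannot change with scaling. With background subtracted per kb of all exons 18 of 79 (22.8%) had an interval above 1, against 19.3% of all genes, and 48 lay above that median. The summed fold of complex III was on the other side of 1 in these settings, at 0.996 and 0.95.

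**Figure D4:**
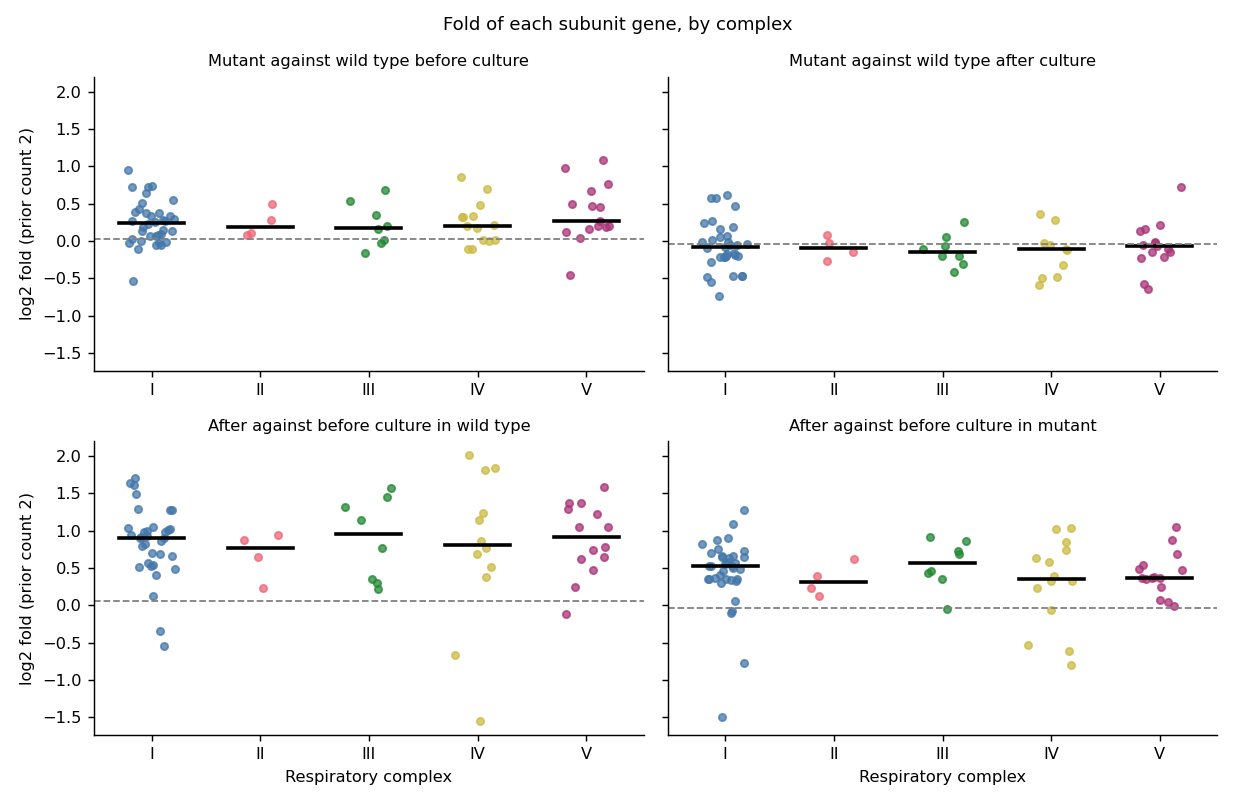
Log2 fold (prior count of 2) of each tested subunit gene in the 4 comparisons, by complex; each point is 1 gene of the 77 subunits, black bars are medians of a complex, and the dashed line is the median of all genes tested. Before culture the mutant to wild type points lie mostly above 0 (66 of 81 when the 4 other members are added), after culture mostly below it (50 of 73 on the same count), and in both culture comparisons most points lie above 0.

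After culture the mutant library was compared with the wild type library in the same way. No member was called, at a background of 0.244% called higher and 0.0731% called lower among 12309 genes, and 73 members had enough counts to be tested. An interval below 1 was found for 9 of them (12.3%), the same share as the 12.3% of all genes, and one above 1 for 2 (2.74%), against 9.48%. The median log2 fold was -0.08 over the members and -0.03 over all genes. Among members with at least 100 counts the lowest folds were those of Ndufb11, at 0.603 (0.448 to 0.817), Atp5l, the g subunit of ATP synthase, at 0.642 (0.495 to 0.836), and Cox6a1, at 0.671 (0.538 to 0.839). Cox8a had 0.717 (0.590 to 0.874) and Uqcrfs1 0.756 (0.594 to 0.967). The members with an interval above 1 were Ndufs8, at 1.55 (1.05 to 2.37), and Ndufa13, an accessory subunit also studied as GRIM-19, at 1.53 (1.11 to 2.13). Ndufa13 had 34.3, 35.3, 36.4 and 55.6 CPM, so the mutant library after culture was the highest, and its interval just overlapped that of the wild type library after culture (47.9 to 64.2 against 27.0 to 48.0 CPM). By scaling with total gene counts 35 members were above 0 and 38 below, so the side on which most members lie is not firm.

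The genotype folds before and after culture share no library, and their ratio compares the change over culture in the mutant with that in the wild type. For the summed subunits the ratio was 0.803 (0.778 to 0.829), and it was lowest for complex IV at 0.730 (0.666 to 0.801) and highest for complex III at 0.838 (0.760 to 0.925), with overlapping intervals. With TMM the summed genotype folds behind it were 1.15 before culture and 0.920 after it. They lay closer together with total gene counts, at 1.06 and 0.965, and with background subtracted over all exons, at 1.02 and 0.946. The size of the ratio thus depends on scaling and background, which its interval does not cover. Among the 67 members with at least 20 counts in every library, 27 (40.3%) had an interval below 1 and 4 above it. The same was true of 28.2% of 9106 genes for the lower side, and the median log2 ratio was -0.31 over the members and -0.20 over all genes, so much of the shift is shared with other genes. Atp5g1 had the lowest ratio at 0.392 (0.230 to 0.669), followed by Ndufb11 at 0.406 (0.279 to 0.592) and Cox6a1 at 0.410 (0.304 to 0.553). The 4 members with a ratio above 1 were Ndufa5 at 2.12 (1.24 to 3.63), Ndufs8 at 1.57 (1.02 to 2.42), Atp5f1 at 1.52 (1.22 to 1.89) and Ndufa13 at 1.49 (1.03 to 2.14). Across the 81 members the 2 genotype folds had an r of -0.06.

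Several subunits have isoforms that replace each other in the same complex, often by tissue, and their share within a set is not moved by library scaling. The widely expressed form held most counts of each set, Cox7a2l left aside. Cox7a2l, counted in the Cox7a set though no subunit, had 281, 553, 115 and 316 counts, against 77, 202, 29 and 95 for Cox7a2. Cox4i2, the form induced by low oxygen and found in lung and in mural cells of vessels, made up 30 of 443 counts (6.77%, 4.62 to 9.53) of the Cox4i1 and Cox4i2 set in the wild type and 53 of 939 (5.64%, 4.26 to 7.32) in the mutant library before culture. After culture it made up 1 of 193 (0.518%, 0.0131 to 2.85) and 11 of 386 (2.85%, 1.43 to 5.04). The wild type share was lower after culture without overlap of intervals, and that of the mutant library overlapped with its share before culture. Cox4i2 passed the filter on counts only before culture, which favours a lower share after it. Ndufa4l2, a form also induced by low oxygen, made up 21.8%, 19.7%, 3.13% and 3.8% of the Ndufa4 set, on 17, 37, 1 and 3 counts. Its expected background, over the principal transcript as for the other isoforms, was 6.18, 7.77, 0.50 and 1.5 counts. Cox6a2 and Cox8b, the forms of heart and skeletal muscle, had 12, 22, 1 and 3 and 11, 22, 0 and 4 counts. The background expected for them before culture was 4.50 and 5.66 counts for Cox6a2 and 2.38 and 2.99 for Cox8b, so these counts are only a few times the background. Cox7b2, a form of the testis, had 21, 41, 2 and 13 counts, against a background of 3.59, 4.51, 0.290 and 0.871. Cox8b had 0 of 165 counts of the Cox8 set in the wild type library after culture, which allows a share of up to 1.82%.

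The summed level of 19 striated muscle markers was 556, 626, 178 and 238 CPM, of which Ttn alone held 349, 346, 96.8 and 146 CPM. Cox6a2, Cox8b and Ndufa4l2 passed the filter on counts only in the mutant library before culture, and Cox4i2 and Cox7b2 only in uncultured libraries. Lower counts of these genes after culture are favoured by the filter and are not a finding. The summed level of 11 markers of pericytes and smooth muscle was 267, 285, 381 and 406 CPM. Its members did not move together. In wild type cells Acta2 was called higher after culture, at a fold of 7.93, and Cspg4 was called lower, at 0.163. The part of these cells in the isoform counts was not tested. Among the ring genes, Atp5g3 held 59.6% (52.9 to 66.0), 60.1% (56.3 to 63.8), 57.9% (49.0 to 66.4) and 61.2% (55.5 to 66.6) of the counts of the Atp5g set, with intervals that overlap in all 4 libraries. Atp5g1 held 19.1% (14.3 to 24.8), 20.9% (17.9 to 24.2), 27.1% (19.7 to 35.5) and 19.4% (15.2 to 24.3), also with overlapping intervals, and its values depend on the background subtracted.

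**Figure D5:**
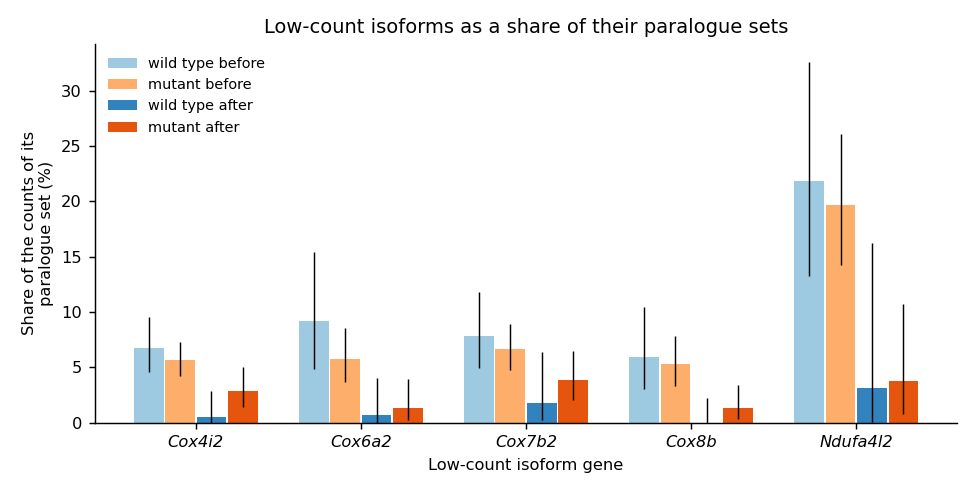
Share of the low-count isoform genes in the counts of their paralogue set, in percent, in the 4 libraries; bars are single libraries and error bars are exact binomial 95% intervals. Cox4i2 stands at 6.77% of its set in the wild type library before culture and at 0.518% after it, and Ndufa4l2 at 21.8% and 3.13%, both on few counts. Both genes passed the filter on counts only before culture, which favours lower shares after it.

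Other genes of the pathway, from lists beyond the symbol rule, were placed beside the subunits. In the culture of wild type cells, where 33.9% of all genes had an interval above 1 and 27.3% one below it, 5 of 6 further subunits or subunit-like proteins with other names were above 1 and none below. Of these 2010107E04Rik, a small ATP synthase subunit, was called at 3.34 (2.57 to 4.33), and Atpif1, the inhibitor of ATP synthase, had 2.32 (1.99 to 2.70). Of 39 assembly factors tested, 11 were above 1, a share under that of all genes, and 1 below, with a median log2 fold of 0.35 and no call. Of 76 mitochondrial ribosomal proteins 38 were above 1 and none below, with a median of 0.65, and Mrps34 and Mrpl10 were called, at 4.08 (2.80 to 5.95) and 2.85 (2.03 to 3.98). Of 14 other enzymes of the citric acid cycle, which meets the chain at complex II, 12 were above 1 and 1 below. Mdh2 had 2.01 (1.75 to 2.31) and Idh2 0.651 (0.541 to 0.778), so that these mitochondrial dehydrogenases ran in opposite directions. Of 14 regulators of mitochondrial biogenesis, 4 were above 1, also under the share of all genes, and none below, with a median of 0.29; Gabpa, which encodes a subunit of the GABP factor, had 1.01 (0.854 to 1.19) and Pprc1, a coactivator, 1.82 (1.53 to 2.16).

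In mutant cells the culture medians were 0.51 for the further subunits, 0.37 for assembly factors, 0.42 for mitochondrial ribosomal proteins, 0.39 for the citric acid cycle and 0.27 for regulators, with no call among them. Before culture, mutant against wild type, 3 of 6 further subunits, 3 of 41 assembly factors, 13 of 76 mitochondrial ribosomal proteins, 7 of 14 enzymes of the citric acid cycle and 2 of 14 regulators had an interval above 1, against 17.6% of all genes, and none was called. Intervals below 1 numbered 0, 4, 0, 0 and 1 in the same lists, against 8.54% of all genes. After culture 0 of 6, 3 of 38, 2 of 75, 0 of 14 and 1 of 13 had an interval above 1, against 9.48% of all genes, and 1, 1, 5, 2 and 0 had one below 1, against 12.3%. Assembly factors, at a median of 0.05 before culture and 0.06 after it, thus lay nearer 0 before culture than the subunits, at 0.21, and the summed fold of the assembly factors was 1.03 (0.983 to 1.07) against 1.15 for the subunits. The difference was not tested.

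The 81 members lie on 19 chromosomes, and their annotation limits some of the values. A near-identical annotated copy, at 98% identity or more over at least 150 bases, was found for 13, among them Atp5h, Cox5b, Atp5f1, Atp5g1 and Ndufb4, and for the uncounted Ndufs5. Exons of 24 members overlap those of another gene, nearly always on the opposite strand, as in Atp5j with Gabpa and Cox4i1 with Cox4nb. The largest overlaps covered 39.0% of the exon bases of Ndufb6 and 30.0% of those of Ndufa13. Whether the counting used strand is not given in the sources used here, so these overlaps may affect the counts and folds of such members. Leaving out the members with a copy lowered the calls in the culture of wild type cells from 8 to 6, and so did leaving out those that overlap another gene.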

How the data were processed

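The authors deposited 1 table per library, with counts of read pairs per gene symbol left unnormalized. The submitters' processing notes name mm10 as the build and bcl2fastq, STAR and HTSeq 0.11.2 as tools. Per the labels' protocols total RNA went into a stranded template-switching kit and was read in pairs of 75 nt. The file names state that sambamba removed duplicates. Annotation, strand setting and other versions: not given in the sources used here. The 5 summary rows of HTSeq stayed out of library sizes. Pairs in no gene were 66.5%, 53.6%, 20.0% and 30.3% of all pairs, and gene counts 7.94%, 8.79%, 9.94% and 10.5%.

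Counts were scaled over all genes with TMM (edgeR 4.0.16, R 4.3.3). A comparison tested genes that reached 20 counts in either library. Fold intervals are Clopper-Pearson at 95%, medians use a prior count of 2, and ratios of folds use the log-scale error of 4 Poisson counts. Intervals cover counting error only, since amplified pairs are not independent molecules. The procedure was tested on simulated counts. Gene models were GENCODE vM21, on the assembly of mm10, with a length for 98.0% of symbols. No genome sequence or protein table was used here, so near-identical copies were sought among annotated transcripts with BLAST+ 2.17.0, and proteins of paralogues were not compared.

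Members, lists and tests were chosen with earlier results of these data known. Named genes are the 3 with the most counts per complex, all called members, the 3 highest and 3 lowest folds per comparison with at least 100 counts, paralogues, the complex II genes and the complex I core, plus the 2 most counted genes and the called genes of other lists. For 1 gene so chosen no values are reported here, and it remains in the counts and sums. Other members are named for lying in such a group or interval class after their values were seen. Alternatives were DESeq2 1.42.0 size factors, total gene counts, other filters, subtraction of the receptor background, subsets of members, a 1.5-fold limit and a prior count of 0.5. Another placed Ndufa4 and Ndufa4l2 under complex IV. Subtraction by principal transcript length and leaving out Cox4nb or overlapping genes were chosen after seeing the data.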

Additional observations from a re-analysis of the deposited data

Results flagged for a closer look

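The difference between the mutant and wild type libraries had opposite directions before and after culture for the members as a group and for 6 single members. The median log2 fold was 0.206 before culture and -0.0788 after it. Cox6a1 had mutant to wild type folds of 1.64 and 0.671, Ndufb11 1.48 and 0.603, Cox8a 1.25 and 0.717, Cox4i1 1.16 and 0.803, Atp5a1 1.15 and 0.864, and Atp5b 1.11 and 0.854. For each of the 6 the counting interval on TMM-scaled levels lay above 1 before culture and below 1 after it, with 1 library per group. The share of all genes with such a reversal is not given here. Among 9106 genes, 6435 had a ratio of genotype folds, after over before culture, below 1. With total gene counts, 23 of 81 members in place of 34 had an interval above 1 before culture. On that scale the intervals of Atp5b, Cox4i1 and Cox8a before culture include 1, so their reversal depends on the scaling. After culture 7 of 73 in place of 9 had one below 1. The intervals hold no variation between litters or cultures, and whether the genotype effect differs between the 2 states was not tested against replicates.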

How the results depend on the processing

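No analysis paired by replicate number was made, since each group holds 1 library. The libraries of a genotype before and after culture come from 1 pooled sort, and an additive fit of genotype and culture, which leaves 1 residual degree of freedom, was not run. The calls and the medians of the members kept their direction with a filter of 100 counts, no filter and a prior count of 0.5. They also did in subsets without near-identical copies, isoforms, Cox4nb or overlapping genes. In these settings calls stayed within 1.5 times their count, and medians within their interval. The distance of the members from all genes did narrow with the filter of 100 counts in both culture comparisons, as given above.

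With total gene counts the median log2 folds were 0.098 and -0.0102 for genotype before and after culture, 0.238 and 0.0048 for culture of wild type and mutant cells, and the calls for culture were 2 and 0. With the background subtracted over all exons, 1 member was called before culture and 3 in the culture of wild type cells, and the medians were 0.0844 (genotype before), 0.50 and 0.27 (culture). Over principal transcripts the medians were 0.118, -0.0128, 0.51 and 0.30, and the culture calls 2 and 0. A 1.5-fold limit gave 25 and 9 culture calls.

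The summed subunit folds, in the order genotype before, genotype after, culture of wild type and culture of mutant, were 1.15, 0.920, 1.73 and 1.39. They became 1.06, 0.965, 1.12 and 1.02 with total gene counts, and 1.02, 0.946, 1.28 and 1.18 with background subtracted over all exons. They were 1.05, 0.968, 1.34 and 1.24 over principal transcripts, and 1.20, 0.953, 1.81 and 1.44 as a geometric mean. DESeq2 size factors moved those for genotype after culture to 0.885 and for culture of wild type cells to 1.81. Reversed sums were those of complex III for genotype before culture, at 0.996 with total counts, 0.95 with background over all exons and 0.979 over principal transcripts, and of complex V for culture of mutant cells, at 0.955 with total counts. The cause of these changes was not tested. The depth of the wild type library after culture limits the comparisons that use it, since 3 counts there stand for 2.18 CPM.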
